A study of Mus musculus with 6 samples.

Results

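The MYC, MAX and MXD network was followed in activated mouse B cells that lack hnRNPL, an RNA-binding protein that regulates splicing. The network was taken as 10 genes chosen by name, *Myc*, *Mycn*, *Max*, *Mxd1*, *Mxd3*, *Mxd4*, *Mxi1*, *Mnt*, *Mlx* and *Mga*, and each has 1 row among the 55421 genes of the expression table. MYC was set against its MXD and MNT antagonists. In hnRNPL-deficient cells 3 of the 5 antagonists rose, *Mxd4* 2.40-fold, *Mxi1* 2.11-fold and *Mxd1* 1.70-fold. The means of *Myc* and *Max* were 0.743 and 0.737 of WT, which fell short of the 1.5-fold change asked of a call, and *Mxd3*, *Mnt*, *Mlx* and *Mga* did not pass the test.

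MYC is a basic helix-loop-helix leucine zipper protein that binds DNA as a dimer with MAX, at the E-box CACGTG, and activates genes for growth and biosynthesis. The MXD proteins (MXD1, MXD3, MXD4 and MXI1) and MNT dimerise with the same MAX and bind the same E-box, but recruit the SIN3-HDAC corepressor, so that MAX can be occupied by an activator or by a repressor. In lymphocytes *Myc* is induced within hours of activation, while MXD proteins are known from resting and differentiating cells.

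B cells purified from spleen were cultured for 24 h with 5 μg/ml LPS and 5 ng/ml IL-4, GFP+ cells were sorted, and poly(A) RNA was sequenced as 1 library per mouse from 3 WT and 3 hnRNPL-deficient mice. Both groups carried the CD21-cre driver and the Rosa mT/mG reporter on a C57BL6/J background, and the hnRNPL-deficient mice also had both *Hnrnpl* alleles floxed (F/F), in the labels CD21-cre and hnRNPL F/F CD21-cre. The methods give males and females older than 6 weeks without assigning them to libraries. CD21-cre is active mostly in mature peripheral B cells, though not in these alone, and GFP marks cells in which Cre has been active rather than the loss of hnRNPL itself. *Hnrnpl* stood at 6.74% of its WT mean (24174 to 25580 normalized counts in WT and 1297 to 2178 in hnRNPL-deficient libraries), which checks the labels. Between 40395186 and 75180749 reads per library fell on genes, so that 1 read was worth 0.765 to 1.37 normalized counts (reads divided by a size factor for each library). The summed B cell markers reached 277630 to 355970 normalized counts in WT and 271890 to 322100 in hnRNPL-deficient cells. Among the markers of other cells, the myeloid list summed to 605 to 741 in WT and 1662 to 1805 in hnRNPL-deficient libraries, a difference that lay almost wholly in *Adgre1* (236 to 315 in WT and 1217 to 1369 in hnRNPL-deficient libraries), while *S100a8* was at 0 in all 6 libraries and *Lyz2* in 5 of them. The T cell list was 898 to 1013 in WT and 621 to 858 in hnRNPL-deficient cells, nearly all from *Lck*, and the NK list did not exceed 9.02. Erythroid markers stayed at or below 27.3. Plasma cell markers lay between 33296 and 39571, mostly from *Xbp1* (11815 to 14650) and *Irf4* (17170 to 25350). *Sdc1* of that list was 112 to 128 in WT and 75.4 to 133 in hnRNPL-deficient libraries. *Jchain* was 26.0 to 117 in WT and 7.07 to 23.4 in hnRNPL-deficient libraries. *Xist* was high in WT 3 and hnRNPL-deficient 2 alone. Whether the *Adgre1* signal or the sex of the mice had a part in the results below was not tested beyond a fit with *Xist* as a covariate, in which the same 3 members were called.

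The E-box at the start of network genes was looked up first, since the factors studied bind it and the members are themselves possible targets. RefSeq (GRCm38.p6) windows from 250 bases before to 50 bases after a transcription start were searched for CACGTG, which reads the same on both strands. It occurred in 4 of the 11 windows of the 9 members that had any, those of *Max*, *Mnt*, *Mlx* and *Mxd4*, and in 7.15% of all 32851 windows. *Myc* had no entry. The E-box began 219 bases before the RefSeq start in *Mxd4*, 123 in *Mnt* and 40 in *Mlx*. In *Max* it spanned the RefSeq start itself, upstream of the gene start at base 76962201 in GENCODE. The *Mxd4* and *Mxd1* promoters are shown because both genes rose, 1 with and 1 without an E-box, and the shorter stretches show the E-box of *Max*, *Mnt* and *Mlx*. All are written 5′ to 3′ on the strand of the gene, with capitals marking CACGTG. They run up to the annotated first exon, but in *Max* only to the end of the E-box and in *Mnt* to a point before that exon.
*Mxd4*, chr5:34187721-34187960, minus strand: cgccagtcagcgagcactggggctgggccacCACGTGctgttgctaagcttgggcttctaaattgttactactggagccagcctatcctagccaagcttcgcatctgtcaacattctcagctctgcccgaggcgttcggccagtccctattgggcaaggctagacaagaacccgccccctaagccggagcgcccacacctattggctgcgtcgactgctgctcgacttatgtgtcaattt
*Mxd1*, chr6:86669162-86669409, minus strand: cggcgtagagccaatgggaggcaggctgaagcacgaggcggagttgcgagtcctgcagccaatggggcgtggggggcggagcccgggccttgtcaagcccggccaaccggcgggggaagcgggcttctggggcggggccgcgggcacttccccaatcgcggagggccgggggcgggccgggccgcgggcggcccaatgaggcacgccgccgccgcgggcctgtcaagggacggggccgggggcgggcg
*Max*, chr12:76962246-76962298, minus strand: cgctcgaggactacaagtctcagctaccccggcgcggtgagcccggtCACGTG
*Mnt*, chr11:74830754-74830853, plus strand: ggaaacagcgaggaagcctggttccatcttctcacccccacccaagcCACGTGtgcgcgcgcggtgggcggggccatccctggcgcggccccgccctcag
*Mlx*, chr11:101087203-101087276, plus strand: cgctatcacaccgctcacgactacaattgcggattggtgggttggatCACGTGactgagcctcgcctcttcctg
A match is a description of these letters and not of binding, and the 4 members with an E-box did not share a direction of change: *Mxd4* rose while *Max* was lower and *Mnt* and *Mlx* did not pass the test. The forkhead motif GTAAACA (or TGTTTAC), present in 3.65% of windows, occurred in 1 member window, at an internal start of *Mxi1*. The E2F motif TTTCGCGC (or GCGCGAAA), present in 0.323% of windows, occurred in that of *Mycn*.

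The activators were examined first. *Myc* (chromosome 15, 61985391 to 61990374 in GRCm38, the build of all coordinates) had 12339, 15369 and 14595 normalized counts in WT libraries 1, 2 and 3, and 9698, 12773 and 8956 in hnRNPL-deficient libraries 1, 2 and 3. The groups overlapped, since hnRNPL-deficient 2 lay above WT 1. The log2 fold change was -0.44 (standard error (SE) 0.149, 95% interval -0.78 to -0.10), with a Benjamini-Hochberg adjusted p of 0.0976 from limma over 17640 genes tested. *Myc* thus passed the adjusted p of 0.1 but was not called, a call being an adjusted p under 0.1 together with a change of at least 1.5-fold. The exact two-sided permutation test over the 6 libraries, which cannot go below 0.1, gave p = 0.2 for *Myc*. Without hnRNPL-deficient 2 the change was -0.59 (limma adjusted p = 0.0378) and the gene was called; leaving out the other libraries in turn gave changes as small as -0.34 and adjusted p-values up to 0.240. Its adjusted p did not pass 0.1 in 8 of 17 alternative fits. In these bulk libraries, fewer cells with a transcript and less of it per cell cannot be told apart. *Mycn* (chromosome 12, 12936093 to 12941914), the paralog of *Myc* used in neural and progenitor cells, had no read in any of the 6 libraries, which allows up to 3 reads, or 2.29 to 4.11 normalized counts by library. *Mycl*, a MYC family gene outside the network list, was low, at 12.8, 10.4 and 14.5 normalized counts in WT and 4.51, 4.04 and 0 in hnRNPL-deficient cells, too low for the test, so that nearly all MYC family transcripts came from *Myc*.

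*Max* (chromosome 12, 76937269 to 76962201), the dimer partner that activators and repressors share, had 11925, 9526 and 10286 normalized counts in WT and 7616, 7884 and 7876 in hnRNPL-deficient libraries. Every hnRNPL-deficient library lay below every WT library, and the hnRNPL-deficient ones were close together. The log2 fold change was -0.43 (SE 0.105, 95% interval -0.67 to -0.20, limma adjusted p = 0.0333), again short of 1.5-fold, and leaving out single libraries gave -0.51 to -0.35. *Myc* and *Max* were therefore the 2 members of 9 tested that were lower at an adjusted p under 0.1 without a minimum fold, where 7.97% of all genes tested were. None of the members was called lower, against 4.08% of all genes. Divided by the length of its exons, *Max* reached 0.577 ± 0.136 of the *Myc* level in WT and 0.574 ± 0.100 in hnRNPL-deficient cells (mean ± SD, n = 3 mice each), a difference far smaller than the spread between mice. The size of this ratio, though not its change between groups, depends on the length used. The exons of *Max* cover 3598 bases and its longest protein-coding transcript 1942, against 2717 and 2338 for *Myc*.

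**Figure D1:**
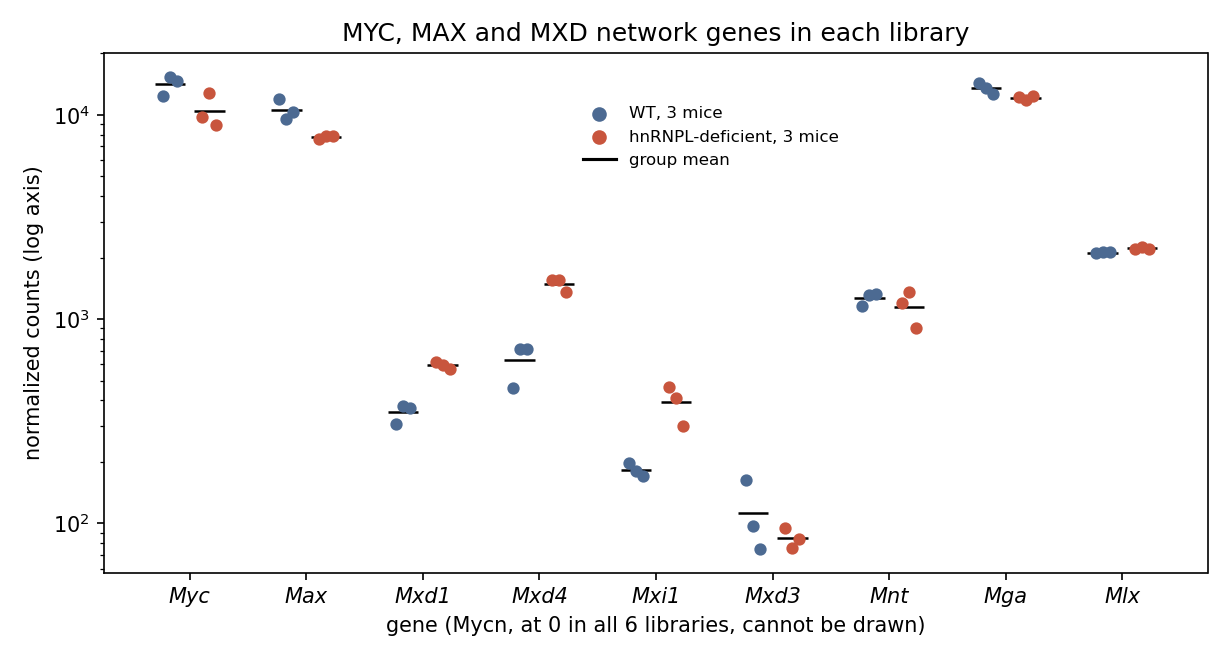
Normalized counts (log axis) of 9 network genes in each library, 3 WT and 3 hnRNPL-deficient mice, with a bar at each group mean. The groups are apart for *Mxd1*, *Mxd4*, *Mxi1* and *Max*, and narrowly for *Mlx* and *Mga*, while *Myc*, *Mnt* and *Mxd3* overlap.

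Among the antagonists, *Mxd4* changed most. *Mxd4* (chromosome 5, 34173883 to 34187720), the MXD gene with the highest level per length here, had 461, 716 and 714 normalized counts in WT and 1552, 1556 and 1353 in hnRNPL-deficient libraries. The lowest hnRNPL-deficient library was well above the highest WT library, and WT 1 was the lowest of all. The log2 fold change was 1.26 (SE 0.184, 95% interval 0.84 to 1.68, limma adjusted p = 0.00469), and 1.05 to 1.37 as single libraries were left out.

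*Mxi1* (chromosome 19, 53310518 to 53375810), which encodes MXI1, also known as MXD2, followed with 198, 179.8 and 169.8 normalized counts in WT and 462, 411 and 300.2 in hnRNPL-deficient libraries. The hnRNPL-deficient libraries were spread more widely than the WT ones, but their lowest value still exceeded every WT value. The log2 fold change was 1.07 (SE 0.200, 95% interval 0.62 to 1.53, limma adjusted p = 0.0129). *Mxi1* has alternative first exons that give proteins of different N-terminus, and counts per gene do not separate them.

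*Mxd1* (chromosome 6, 86647042 to 86669161), which encodes MAD1, had 306, 376 and 368 normalized counts in WT and 615, 597 and 572 in hnRNPL-deficient libraries. The hnRNPL-deficient libraries lay close together and above all WT libraries. The log2 fold change was 0.77 (SE 0.144, 95% interval 0.44 to 1.09, limma adjusted p = 0.0130). Thus 3 of 9 members tested were called higher, against 7.28% of all genes tested, and each of the 3 was called in all 17 alternative fits, including edgeR and DESeq2 on the reads of 5 libraries. At an adjusted p under 0.05 and 2-fold, *Mxd4* and *Mxi1* were still called and *Mxd1* was not.

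The other 2 antagonists did not follow. *Mxd3* (chromosome 13, 55325168 to 55329823), a MXD gene known for its expression in proliferating cells, had 164, 96.8 and 74.9 normalized counts in WT and 94.7, 75.7 and 83.6 in hnRNPL-deficient cells. WT 1 stood above the others and the remaining 5 libraries were intermingled. The gene shares 105 exonic bases with *Prelid1* on the opposite strand, which is far more abundant, but the counting was strand-specific. The log2 fold change of -0.33 (SE 0.308, limma adjusted p = 0.531, 95% interval -1.03 to 0.38) became -0.01 without WT 1. *Mnt* (chromosome 11, 74830920 to 74845725), the broadly expressed antagonist that is present in resting and cycling cells alike, had 1158, 1307 and 1333 normalized counts in WT and 1199, 1351 and 901 in hnRNPL-deficient libraries. The 2 groups overlapped, and only hnRNPL-deficient 3 was below the WT values. Its change was -0.16 (SE 0.161, limma adjusted p = 0.569, 95% interval -0.52 to 0.21) and 0.010 without that library, so that an increase of the size seen in *Mxd4*, *Mxi1* or *Mxd1* lay outside its interval.

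**Figure D2:**
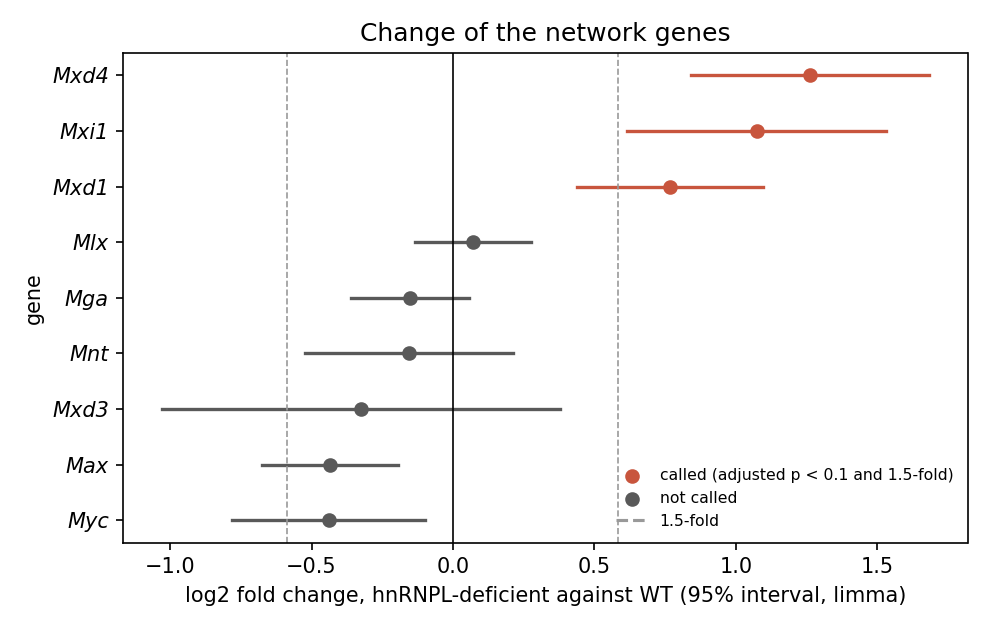
Log2 fold change of hnRNPL-deficient against WT cells for the 9 members tested, with 95% intervals from limma and dashed lines at 1.5-fold. *Mxd4* (1.26), *Mxi1* (1.07) and *Mxd1* (0.77) were called, and the points of *Myc* and *Max* (-0.44 and -0.43) lie inside the dashed lines with intervals below 0.

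The other 2 dimerisation partners did not pass the test. *Mlx* (chromosome 11, 101087277 to 101092207), the MAX-like protein that pairs with MXD1, MXD4, MNT and the glucose-sensing MONDO proteins, had 2106, 2125 and 2118 normalized counts in WT and 2212, 2248 and 2212 in hnRNPL-deficient libraries. The libraries of each group differed by less than the gap between the groups, yet the difference was only 5.10% and its log2 fold change of 0.07 (95% interval -0.13 to 0.28) had an adjusted p of 0.644 in limma, which shares the estimate of spread over genes. *Mga* (chromosome 2, 119897228 to 119969581), a large MAX partner that also carries a T-box and belongs to the PRC1.6 repressor complex, had 14365, 13491 and 12576 normalized counts in WT and 12205, 11776 and 12400.2 in hnRNPL-deficient cells. All hnRNPL-deficient values were below all WT values, with a mean of 0.900 of WT and a log2 fold change of -0.15 (95% interval -0.36 to 0.06, limma adjusted p = 0.328). Including these, 6 of the 9 members tested did not overlap between groups, where 34.0% of all genes tested did not. With 3 mice against 3, the exact two-sided permutation test of a single gene cannot go below p = 0.1.

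The levels of the members were compared with each other as normalized counts per kb of exon. In WT cells the order was *Myc* (5190 ± 580), *Max* (2940 ± 341), *Mlx* (1059 ± 4.75), *Mga* (879 ± 58.3), *Mnt* (274 ± 20.4), *Mxd4* (74.3 ± 17.3), *Mxd1* (49.5 ± 5.39), *Mxd3* (47.2 ± 19.5) and *Mxi1* (26.8 ± 2.13), as mean ± SD of 3 mice. Neighbours in this order did not overlap between libraries, except *Mxd1* and *Mxd3*. In hnRNPL-deficient cells *Myc* (3856 ± 745) and *Max* (2166 ± 42.3) still led, and the order differed from WT only in that *Mxi1* (57.3 ± 12.2) stood above *Mxd3* (35.7 ± 4.02). *Mxd4* reached 175 ± 13.7 there, against 249 ± 49.5 for *Mnt* and 84.0 ± 3.07 for *Mxd1*, and no neighbours overlapped. On this scale the members that rose were thus among the least abundant, and each remained below *Mnt*. The order depends on the length used. The exons of *Mxd4* cover 8483 bases and its longest protein-coding transcript 3872, against 4627 and 4590 for *Mnt*. Without division by length, *Mxd4* (mean of 1487 normalized counts) stood above *Mnt* (1150) in hnRNPL-deficient cells.

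To set *Myc* against its antagonists in the same library, its level per kb was divided by the summed levels of *Mxd1*, *Mxd3*, *Mxd4*, *Mxi1* and *Mnt*. This ratio was 10.2, 11.6 and 11.2 in WT and 5.60, 7.21 and 6.41 in hnRNPL-deficient cells. Every hnRNPL-deficient library was below every WT library, and the mean fell from 10.99 ± 0.732 to 6.41 ± 0.803, or to 0.583 of WT. The ratio describes transcripts, not proteins, and combines members chosen with their changes known, so no test is given for it. Its size depends on which antagonists are counted, being 0.824 of WT with *Mnt* alone and 0.718 with *Mga* added, and 0.509 where levels were not divided by length.

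On the antagonist side, the summed antagonist level was 446, 487 and 481 per kb in WT and 637, 652 and 514 in hnRNPL-deficient cells, or 1.27 times as high on average. The 4 MXD genes without *Mnt* summed to 196, 205 and 193 in WT and 378, 360 and 320 in hnRNPL-deficient cells, or 1.78 times as high. *Mnt* supplied 58.0 ± 1.90% of the summed antagonist level in WT and 41.1 ± 3.49% in hnRNPL-deficient libraries. The share of *Mxd4* went from 15.7 ± 3.03% to 29.3 ± 1.52%, that of *Mxd1* from 10.5 ± 0.668% to 14.1 ± 1.44% and that of *Mxi1* from 5.70 ± 0.719% to 9.48 ± 1.06%. The share of *Mxd3* was 10.2 ± 4.71% in WT, where WT 1 alone had 15.5%, and 6.01 ± 1.01% in hnRNPL-deficient cells. The size of these shares depends on the exon length used. Without division by length, *Mxd4* (1552, 1556 and 1353 normalized counts) exceeded *Mnt* (1199, 1351 and 901) in each hnRNPL-deficient library.

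**Figure D3:**
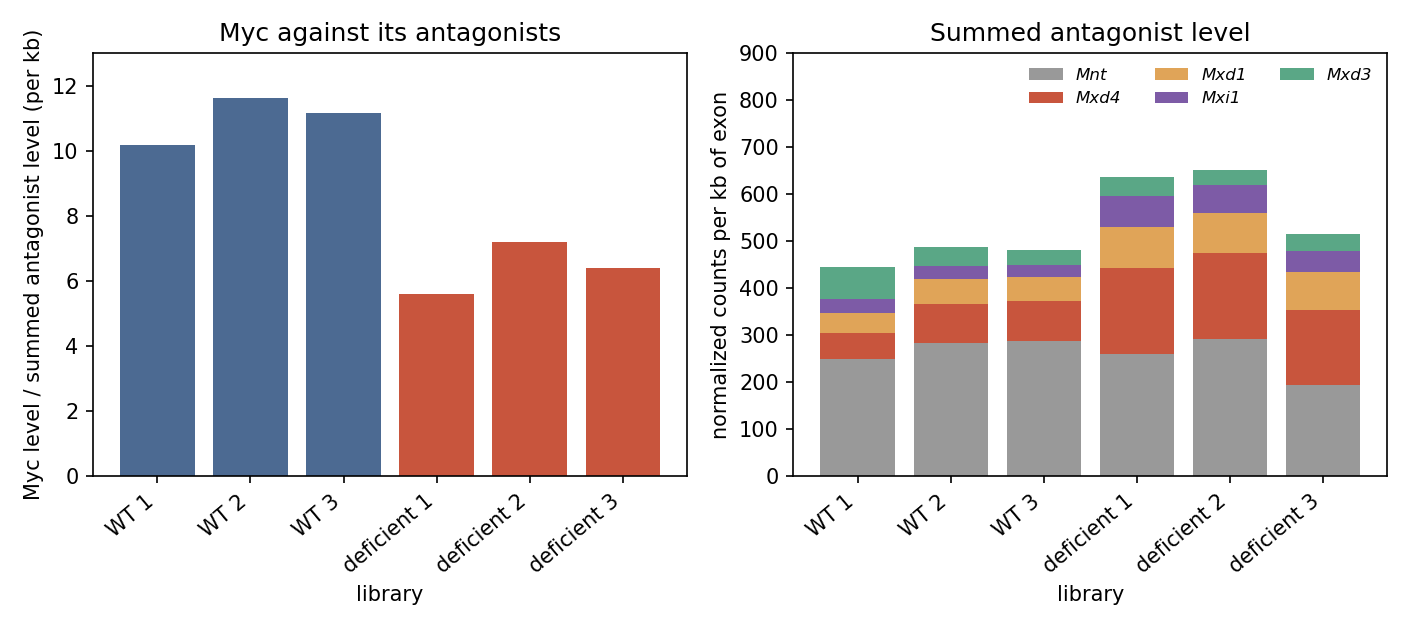
Left, the *Myc* level divided by the summed antagonist level (both per kb of exon) in each library, 10.2 to 11.6 in WT and 5.60 to 7.21 in hnRNPL-deficient cells. Right, the summed antagonist level per library in normalized counts per kb, split by gene, in which the *Mxd4*, *Mxd1* and *Mxi1* segments are taller in the 3 hnRNPL-deficient libraries.

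The genes that MYC and its antagonists regulate were read from lists of textbook targets. These lists were chosen with earlier results of these data known, so their counts are a description and not a test. Of 42 MYC-induced genes of growth and biosynthesis, all tested, the mean was lower in hnRNPL-deficient cells for all 42, with log2 fold changes between -1.09 and -0.14 and a median of -0.43, where the median of all genes tested was -0.03. The size of the list median depended on the scaling of the libraries. It was -0.37 with equal totals and -0.30 after quantile normalization. In this list 26 genes were lower at an adjusted p under 0.1, and 5 of them also by 1.5-fold, beside the 7.97% and 4.08% of all genes given above, and none was higher. The 5 were *Ccnd2* (-1.09, limma adjusted p = 0.00344), the D-type cyclin of B cell activation, *Hspd1* (-0.75), the mitochondrial chaperonin, *Hk2* (-0.65), which phosphorylates glucose at the entry to glycolysis, *Tfrc* (-0.65), the transferrin receptor, and *Cdc25a* (-0.64), a phosphatase that activates CDKs, the last named after its value was seen. *Hspd1* had 58224, 50930 and 43874 normalized counts in WT and 34188, 30863 and 25970 in hnRNPL-deficient cells, which did not overlap. *Hk2* was no longer called without WT 1 (-0.54) nor *Cdc25a* without hnRNPL-deficient 3 (-0.50). *Tfrc* ranged from -0.80 to -0.45 as single libraries were left out, and was not called without WT 1, hnRNPL-deficient 2 or hnRNPL-deficient 3. Most of the 26 genes thus fell by less than 1.5-fold.

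Of 12 genes that MYC is known to repress, 10 were tested, 3 were called higher (7.28% of all genes) and none lower, with a median log2 fold change of 0.47. The list as fixed also held *Zbtb17*, which encodes MIZ1, the factor through which MYC represses several of them. *Zbtb17* was at -0.11 (limma adjusted p = 0.671), and with it the median was 0.45 over 11 genes. The 3 were *Cdkn1a* (3.34, limma adjusted p = 2.1e-05) and *Cdkn2b* (1.46, adjusted p = 0.00761), both inhibitors of cyclin-dependent kinases, and *Ndrg1* (1.53, adjusted p = 0.0107), a gene of stress and differentiation. *Cdkn2b* had 51.1, 67.4 and 50.5 normalized counts in WT and 149.7, 135 and 186 in hnRNPL-deficient cells. *Ndrg1* had 34.8, 25.9 and 32.1 normalized counts in WT and 109.99, 88.8 and 75.4 in hnRNPL-deficient cells. Both were apart between the groups in every library, at low levels. *Cdkn1a* is also a target of p53, and the list does not separate the routes by which its genes are regulated.

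**Figure D4:**
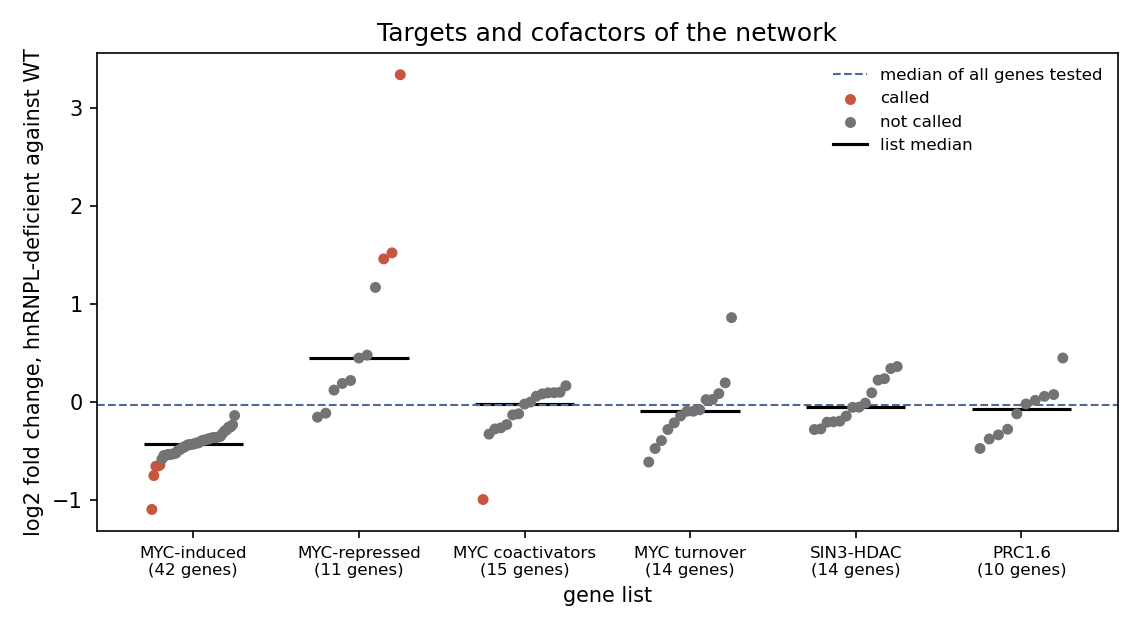
Log2 fold change of each tested gene in 6 lists of targets and cofactors of the network, with a bar at each list median and a dashed line at the median of all genes tested (-0.03). The MYC-induced genes all lie below 0, and the called genes are 5 MYC-induced genes, 3 MYC-repressed genes (a list drawn with *Zbtb17*) and 1 coactivator.

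The cofactors of either side were read against the same shares of all genes, 7.28% called higher and 4.08% called lower, and their counts of 0 or 1 lay near them. Of 15 genes of the SIN3-HDAC corepressor, which MXD and MNT proteins recruit, 14 were tested and none was called. *Sin3a* was at -0.20 (limma adjusted p = 0.192), *Sin3b* at 0.34 (adjusted p = 0.222), and *Hdac1*, with 0.36 (adjusted p = 0.0869), was the only gene of the list past the adjusted p without the minimum fold. Of 15 coactivators of MYC, *Crebbp* alone was called. *Crebbp*, which encodes the acetyltransferase CBP, had 31075, 29305 and 30368 normalized counts in WT and 13293, 15727 and 16775 in hnRNPL-deficient cells. This was a log2 fold change of -0.99 (SE 0.109, limma adjusted p = 0.00148), with no overlap and a range of -1.06 to -0.90 as single libraries were left out.

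Of 14 regulators of MYC protein turnover none was called. For this and the following lists the shares of all genes were again 7.28% called higher and 4.08% called lower, so that counts of 0 in lists this short say little. *Skp2*, a ubiquitin ligase subunit, was lower at -0.47 (limma adjusted p = 0.0463). Of 10 PRC1.6 subunits that bind MGA and MAX none was called, and *E2f6* was lower at -0.37 (limma adjusted p = 0.0711). On the MLX side, *Mlxip*, which encodes the MONDO protein MONDOA, had a log2 fold change of 0.15 (limma adjusted p = 0.367). *Mlxipl*, which encodes ChREBP, did not exceed 1.80 normalized counts in any library. The MONDO list, with 2 of 4 genes tested, held no called gene. Neither did a list of 6 other MYC family and network genes, of which 5 were tested. The 5 were *Mycbp*, *Mycbp2*, *Zbtb17*, *Usf1* and *Usf2*, while *Mycl* was too low for the test.

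The 5 genes whose values most resembled those of *Myc* over the 6 libraries, among the 12392 genes that averaged at least 100 normalized counts, were *Piezo1*, a mechanosensitive channel (Pearson r = 0.998), *Cdk9*, the kinase of P-TEFb (0.997), *Nop56*, a box C/D snoRNP protein (0.993), *Prag1* (0.992) and *Scaf4* (0.991). These values describe 6 libraries that share size factors and 2 genotypes and carry no test. Each of the 5 had a lower mean in hnRNPL-deficient cells, with log2 fold changes from -0.47 to -0.21.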

How the data were processed

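RNA-seq of GFP+ splenic B cells from 3 WT and 3 hnRNPL-deficient mice, grouped by the submitters' labels, was used. The authors trimmed reads with fastp (0.23.1), aligned them with STAR (2.7.9a) to mm10, counted them per gene with featureCounts in a strand-specific manner and divided the counts by DESeq2 (1.38.2) size factors. The deposited normalized counts are such a signal, 1 column per library. The deposited table also holds the authors' log2 fold changes, a test statistic (a score) and p-values, which were not used.

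Log2(normalized count + 1) was tested with limma (3.58.1, R 4.3.3, mean-variance trend) for the 17640 genes that averaged at least 10, with Benjamini-Hochberg adjustment. Fold changes are on that scale, which understates low genes. In each library 100% of values were whole reads (tolerance 0.05). The value of 1 read in hnRNPL-deficient 2 was too close to 1 for the automatic test, so edgeR (4.0.16) and DESeq2 (1.42.0) used the reads of 5 libraries. Levels were divided by the merged exon length in GENCODE on GRCm38, an earlier release than the authors used. *Mxd4*, *Mxi1* and *Mlx* share 514, 194 and 385 exonic bases with genes on the opposite strand. Limits of 3 reads cover counting error only. Tests were tried on simulated data.

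The members and lists were chosen with earlier results of these data known. Named genes are the members, *Hnrnpl*, up to 4 genes per list with the largest change among those at an adjusted p under 0.1, binding partners of the members, and the 5 genes most like *Myc*. Alternatives were pseudocounts, filters, scalings, variance settings, thresholds, the replicate number as a block, *Xist* as a covariate, the count tests and each library left out.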

Additional observations from a re-analysis of the deposited data

How the results depend on the processing

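*Mxd1*, *Mxd4* and *Mxi1* were called higher in each of the 17 alternative fits, and *Max*, *Mxd3*, *Mnt*, *Mlx* and *Mga* were called in none. At an adjusted p under 0.05 and 2-fold the members called higher were 2, without *Mxd1*. *Myc* was called lower only without hnRNPL-deficient 2, at -0.59. Its change was -0.59 to -0.34 with each library left out, -0.30 (adjusted p = 0.261 from limma) after quantile normalization, and -0.56 (adjusted p = 0.0459) in edgeR and -0.58 (adjusted p = 0.00273) in DESeq2 on 5 libraries, which lack hnRNPL-deficient 2 and so change the tool and the library together. *Mnt* ranged from -0.28 to 0.010 with each library left out, turning from -0.16 to 0.010 without hnRNPL-deficient 3. The number of members called lower was 0 to 1 with each library left out (1 without hnRNPL-deficient 2), and 2 with no minimum fold. Over all genes, 1284 were called higher and 719 lower. These numbers were 850 to 1124 and 483 to 695 with each library left out (850 higher without WT 3), 610 and 216 at an adjusted p under 0.05 and 2-fold, and 1766 and 1406 with no minimum fold. The median of the MYC-induced genes was -0.30 after quantile normalization and -0.48 to -0.38 with each library left out. The ratio of *Myc* to its antagonists was 0.547 to 0.620 of WT with each library left out, 0.718 with *Mga* added, 0.824 with *Mnt* alone, and 0.522 with the length of the longest protein-coding transcript, a choice added after seeing the data. The cause of these shifts was not tested. Same-numbered samples of the groups share only a number, with correlations of their deviations of 0.43, 0.32 and 0.07, and WT 3 correlated best with hnRNPL-deficient 2. With the replicate number as a block, 1755 genes were called higher and 1018 lower, *Myc* had an adjusted p of 0.0166 in limma at -0.44, and the same members were called. The shallowest library, hnRNPL-deficient 3, limits the precision of the lowest members.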
